A study of Mus musculus with 6 samples.

Results

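Transcripts of 10 genes of the endoplasmic reticulum (ER) folding machinery and of the unfolded protein response (UPR) were followed in mouse liver, namely Hspa5, Hsp90b1, Calr, Pdia4, Pdia6, Dnajb9, Sdf2l1, Xbp1, Herpud1 and Creld2. The genes form a list of names chosen with earlier results of these data known, and no threshold on their values was applied. All 10 were found among the 37991 Ensembl gene IDs of the count table, each under 1 ID. All 10 also passed the filter on low counts that left 14686 tested genes. Livers came from 3 C57BL/6J wild-type males (WT) and 3 males of the same background that lack Zpbp2 (B6.Zpbp2-/-, called Zpbp2 KO), all 12 weeks old, with 1 poly(A)-selected library per liver. The product of Zpbp2 is known from sperm, where it takes part in binding to the egg coat. The sources used here do not give how the allele was made or which part of the gene it removes. No treatment is named in the labels for either group.

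The ER of a hepatocyte folds the plasma proteins that the liver secretes. Unfolded protein draws the chaperone BiP away from 3 membrane sensors, IRE1, PERK and ATF6, and so starts the UPR. IRE1 splices the Xbp1 mRNA into the form that encodes an active transcription factor, ATF6 is cut in the Golgi to release another, and PERK slows translation and favours that of ATF4. Together these factors raise chaperones, disulphide isomerases and the machinery that returns misfolded protein to the cytosol for degradation. In liver the response also follows feeding and the daily rhythm of secretion. The counts are per gene, so the spliced and unspliced forms of Xbp1 were not told apart.

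Many ER chaperone promoters hold the ER stress element, in which CCAAT and CCACG are separated by 9 bases of any kind. It was searched on both strands of the RefSeq promoter windows, which run from 250 bases before to 50 bases after each start (build GRCm38.p6), and all 10 genes had 1 window. An exact match was found for 5 of the 10 genes (Hspa5, Hsp90b1, Calr, Pdia6 and Creld2), against 0.119% of all 32851 windows. The ER stress element II, ATTGG and CCACG separated by 1 base, was found in the window of Herpud1 alone among the 10, against 0.0365% of all windows. The unfolded protein response element TGACGTGG was in 0 of the 10 windows and in 0.676% of all. CCAAT alone was in 9 of 10 windows and in 37.4% of all, and CCACG alone in 9 of 10 and in 32.8% of all. Each match to an element also counts under its CCAAT and CCACG parts. Dnajb9, Sdf2l1 and Pdia4 held both parts in other arrangements, and the Xbp1 window held neither. A match is a run of letters, not a shown binding site.

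The windows of 4 genes are shown, 3 with the ER stress element and 1 with element II. The transcripts of the 5 genes with the ER stress element varied together over the livers, and that of Herpud1 varied apart from them. Genes without an exact match did so too. Pdia4 and Sdf2l1 had Pearson's r of 0.99 and 0.97 with Hspa5 over the 6 livers. Dnajb9, which holds neither element, had r = 0.91 with Herpud1. Hspa5 and Hsp90b1 are classic carriers of the ER stress element, Creld2 was among the most variable of the 10 transcripts, and Herpud1 carries the other element. Capitals mark the matches to the elements, and each window is written 5′ to 3′ on the strand of its gene. The match of Hspa5 (chr2:34771840-34772139, plus strand) spans 65 to 47 bases before the start. Hsp90b1 (chr10:86705395-86705694, minus strand) had 2 matches, at 212 to 194 and, in the reverse orientation, 107 to 89 bases before the start. The match of Creld2 (chr15:88819396-88819695, plus strand) lies in the reverse orientation 126 to 108 bases before the start, and that of Herpud1 (chr8:94386179-94386478, plus strand) 52 to 42 bases before it.
Hspa5: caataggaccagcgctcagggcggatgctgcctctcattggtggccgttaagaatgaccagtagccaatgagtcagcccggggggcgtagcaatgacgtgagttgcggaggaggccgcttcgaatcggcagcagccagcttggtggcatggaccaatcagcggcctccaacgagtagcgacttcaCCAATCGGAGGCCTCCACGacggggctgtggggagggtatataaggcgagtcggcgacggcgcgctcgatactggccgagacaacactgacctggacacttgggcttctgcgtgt
Hsp90b1: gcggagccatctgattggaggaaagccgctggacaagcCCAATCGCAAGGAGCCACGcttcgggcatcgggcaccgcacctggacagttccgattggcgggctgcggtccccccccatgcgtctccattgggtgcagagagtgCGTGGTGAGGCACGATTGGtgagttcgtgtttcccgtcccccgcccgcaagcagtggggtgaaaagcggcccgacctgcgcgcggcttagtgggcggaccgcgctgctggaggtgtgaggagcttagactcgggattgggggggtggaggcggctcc
Creld2: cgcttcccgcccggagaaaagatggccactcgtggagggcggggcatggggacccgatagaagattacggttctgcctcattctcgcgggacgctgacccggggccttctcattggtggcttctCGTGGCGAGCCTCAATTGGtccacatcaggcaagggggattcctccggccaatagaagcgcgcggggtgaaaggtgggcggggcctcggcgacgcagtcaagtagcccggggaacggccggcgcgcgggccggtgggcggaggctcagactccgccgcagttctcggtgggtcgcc
Herpud1: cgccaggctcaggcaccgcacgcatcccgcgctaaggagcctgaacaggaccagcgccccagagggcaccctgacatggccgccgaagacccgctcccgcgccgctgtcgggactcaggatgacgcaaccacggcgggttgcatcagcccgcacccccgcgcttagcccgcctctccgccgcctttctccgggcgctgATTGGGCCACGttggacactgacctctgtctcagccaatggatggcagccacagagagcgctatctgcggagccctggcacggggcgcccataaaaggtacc

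The other matches, with 5 flanking bases on each side in lower case, were those of Calr (reverse orientation, 162 to 144 bases before the start) and Pdia6 (98 to 80 bases before the start). They are shown so that the CCAAT and CCACG parts can be compared with those of Hspa5.
Calr: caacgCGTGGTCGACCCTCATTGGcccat
Pdia6: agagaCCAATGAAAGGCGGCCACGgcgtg

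Libraries held 37904891 to 52955687 counts, with 4.84% to 5.81% from the mitochondrial genome. Zpbp2 itself had 4, 13 and 7 counts in WT replicates 1 to 3 and 0 in each Zpbp2 KO library. Hepatocyte markers such as Alb and Apoa1 (8 genes) summed to 92096 to 101216 CPM (counts scaled to 1000000 per library) in WT. In the Zpbp2 KO livers they summed to 102661 to 107969 CPM, without overlap, and they were far the most abundant of the marker lists. The lack of overlap held for the sum only. Taken singly, 0 of the 8 separated the groups in either direction, against 5.56% (Zpbp2 KO higher) and 6.01% (lower) of all tested genes. Their log2 fold changes were above 0 for 7 and below 0 for 1, at -0.43. Of 9 exocrine pancreas markers, Amy2a5 was at 0 in every library, and their sum was 223 CPM in Zpbp2 KO replicate 1 against 11.9 to 37.1 CPM in the other 5 livers. In that library Ctrb1, chymotrypsinogen, stood at 44.0 CPM, and in the others at 0 to 0.0575 CPM. Kupffer cell and macrophage markers (10 genes, none at 0) summed to 317 to 455 CPM in the WT livers and 181 to 574 CPM in the Zpbp2 KO livers, lowest in Zpbp2 KO replicate 2. B and plasma cell markers (11 genes, 10 of them tested) summed to 242 to 259 and 210 to 268 CPM, nearly all of it Sdc1, which hepatocytes also make. Their part in the results below was not tested, beyond the values without Zpbp2 KO replicate 1. In whole liver RNA, fewer cells of a type and less RNA per cell cannot be told apart.

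None of the 10 transcripts was called different between Zpbp2 KO and WT livers. The loss of Zpbp2 was compared with WT to see whether liver transcripts changed. Adjusted p-values (edgeR's quasi-likelihood test, Benjamini-Hochberg method across the 14686 genes) ran from 0.798 for Xbp1 to 0.982 for Hspa5, against 0.0136% of tested genes called by that test. DESeq2 called 0 of the 10 as well, against 0.517% of tested genes. At an unadjusted p below 0.05 edgeR had 1 of the 10, Xbp1, against 5.79% of all tested genes. All 10 log2 fold changes (Zpbp2 KO over WT) were above 0, from 0.04 for Hsp90b1 to 0.41 for Xbp1, with a median of 0.17, while over all tested genes 7764 of 14686 were above 0 with a median of 0.01. That direction rested on single livers. Without WT replicate 1 only 4 of the 10 were above 0 and the median was -0.10, and without Zpbp2 KO replicate 2 it was 5 of 10 with a median of -0.02. Without Zpbp2 KO replicate 1, the library with pancreas transcripts, 8 of 10 were above 0 and the median was 0.09.

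**Figure D1:**
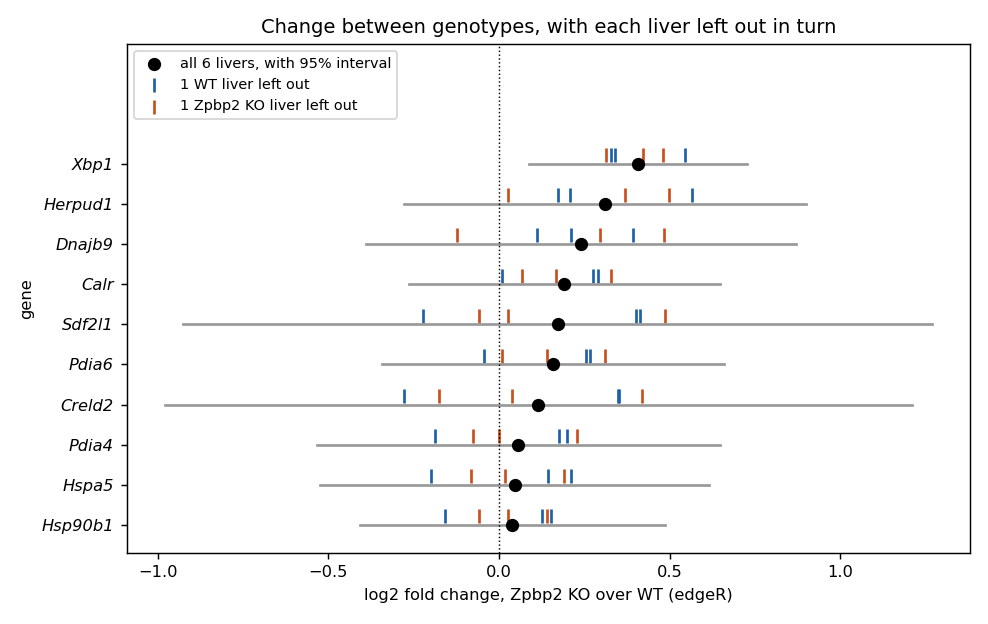
Log2 fold change of each of the 10 transcripts, Zpbp2 KO over WT, with its 95% interval (grey line) from the edgeR fit, and the value with each WT (blue) or Zpbp2 KO (orange) liver left out. The interval of Xbp1 lies above 0 before adjustment, those of the other 9 genes include 0, and 6 of them pass below 0 when WT replicate 1 is left out.

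Livers of the same genotype differed more for most of these transcripts than for the median gene. Hspa5 encodes BiP, the Hsp70 chaperone of the ER lumen. It stood at 570, 1099 and 1043 CPM in WT replicates 1 to 3 and at 970, 1093 and 737 CPM in Zpbp2 KO replicates 1 to 3. WT replicate 1 was the lowest and Zpbp2 KO replicate 3 the next lowest, and the groups overlapped. The log2 fold change was 0.05 ± 0.25 (SE), with a 95% interval from -0.52 to 0.62. Hsp90b1 encodes GRP94, the Hsp90 of the ER, and followed the same order of low livers. Its values were 626, 1018 and 1006 CPM in the WT livers and 923, 1027 and 774 CPM in the Zpbp2 KO livers (0.04 ± 0.20, interval -0.41 to 0.49). Calr encodes calreticulin, a lectin chaperone that also binds calcium. It stood at 633, 964 and 1002 CPM in the WT livers and 1024, 1152 and 793 CPM in the Zpbp2 KO livers (0.19 ± 0.20, interval -0.26 to 0.65), again with the lowest value in WT replicate 1 and overlap between the groups.

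Pdia4 and Pdia6 encode disulphide isomerases, which make and rearrange the disulphide bonds of secreted proteins. Pdia4 stood at 144, 271 and 270 CPM in the WT livers and 256, 280 and 177 CPM in the Zpbp2 KO livers (0.06 ± 0.26, interval -0.53 to 0.65). Pdia6 stood at 195, 314 and 324 CPM in the WT livers and 318, 371 and 241 CPM in the Zpbp2 KO livers (0.16 ± 0.22, interval -0.34 to 0.66). In both, WT replicate 1 and Zpbp2 KO replicate 3 lay below the other 4 livers.

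Sdf2l1 and Creld2 had the widest spread. Sdf2l1 encodes a soluble ER protein that assists BiP and its J-domain partners, and Creld2 an ER-stress-induced protein with epidermal growth factor-like repeats. Sdf2l1 stood at 15.5, 53.7 and 54.3 CPM in the WT livers and 59.97, 55.3 and 23.9 CPM in the Zpbp2 KO livers. Its highest liver was 3.86-fold above its lowest, and its change between genotypes was 0.17 ± 0.48 (interval -0.92 to 1.27). Creld2 stood at 17.1, 59.3 and 60.5 CPM in the WT livers and 54.6, 67.6 and 26.2 CPM in the Zpbp2 KO livers, a 3.94-fold range, with a change of 0.12 ± 0.48 (interval -0.98 to 1.21). The SD of log2 CPM within groups was 0.90 for Sdf2l1 and 0.89 for Creld2, above that of 98.8% of tested genes for both, and the median over all tested genes was 0.21. Pdia4 (0.45) and Hspa5 (0.43) lay above 84.8% and 83.2% of tested genes. The intervals of Sdf2l1 and Creld2 reach past a log2 fold change of 1, so they do not exclude a 2-fold rise.

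Xbp1, the transcription factor that IRE1 activates by splicing, was the member with the smallest spread and the smallest p. Its values were 192, 257 and 202 CPM in the WT livers and 282, 324 and 258 CPM in the Zpbp2 KO livers. The highest WT liver and the lowest Zpbp2 KO liver were nearly level, at 256.6 and 257.7 CPM, so the groups did not overlap by a narrow margin. No overlap with Zpbp2 KO higher was seen in 1 of the 10 genes, against 5.56% of all tested genes, and no overlap with Zpbp2 KO lower in 0 of 10, against 6.01%. Means were 217 ± 34.6 CPM in the WT livers and 288 ± 33.5 CPM in the Zpbp2 KO livers (SD, n = 3), with a log2 fold change of 0.41 ± 0.14. The unadjusted p of edgeR's quasi-likelihood test was 0.0184 and the adjusted p 0.798. Leaving out each library in turn gave log2 fold changes of 0.31 to 0.54, with adjusted p of 0.288 to 0.958. The SD within groups was 0.20, above that of 46.7% of tested genes.

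Dnajb9 and Herpud1 did not follow the chaperones. Dnajb9 encodes ERdj4, a J-domain partner of BiP that represses IRE1, and Herpud1 a membrane protein that organises the ER-associated degradation complex. Dnajb9 stood at 66.0, 52.7 and 45.9 CPM in the WT livers and 41.1, 93.6 and 59.8 CPM in the Zpbp2 KO livers (0.24 ± 0.27, interval -0.39 to 0.87). Herpud1 stood at 352, 214 and 233 CPM in the WT livers and 239, 449 and 303 CPM in the Zpbp2 KO livers (0.31 ± 0.26, interval -0.28 to 0.90). For both, Zpbp2 KO replicate 2 was the highest liver and WT replicate 1, the lowest liver for the chaperones, was the next highest.

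**Figure D2:**
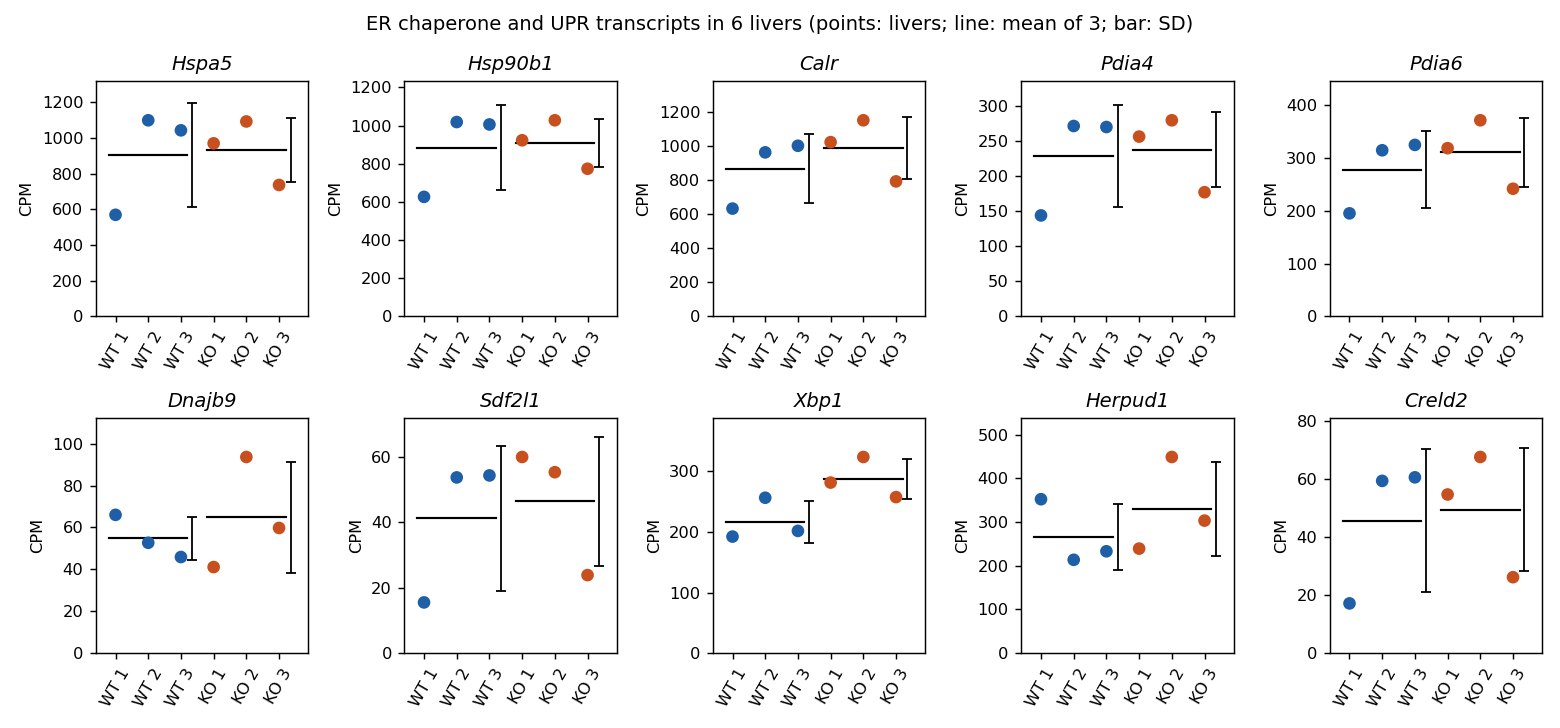
CPM of each of the 10 transcripts in each liver, WT in blue and Zpbp2 KO (KO) in orange, with the mean of 3 livers (line) and SD (bar beside it). In 7 panels WT replicate 1 is the lowest point and Zpbp2 KO replicate 3 the next lowest, and only Xbp1 has no overlap between the groups.

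The order of the livers thus split the list. For 7 genes (Hspa5, Hsp90b1, Calr, Pdia4, Pdia6, Sdf2l1 and Creld2) WT replicate 1 was the lowest liver and Zpbp2 KO replicate 3 the next lowest. This set of 7 was picked after the values were seen and is given as a description. Relative to each gene's mean over 6 livers, on the log2 CPM scale, the 7 genes averaged -0.79 in WT replicate 1 and -0.38 in Zpbp2 KO replicate 3, and 0.24 to 0.38 in the other 4 livers. Pearson's r over the 6 livers was 0.95 to 1.00 among their 21 pairs, with a median of 0.98, and 0.96 to 1.00 after each genotype was centred on its own mean. With those low livers left out, the median r over the remaining 4 livers fell to 0.47 (lowest -0.93), so the correlation rests on WT replicate 1 and Zpbp2 KO replicate 3. Leaving out 1 liver at a time gave medians of 0.94 to 0.99. The size of the swing differed within the set. In WT replicate 1, Sdf2l1 and Creld2 deviated by -1.33 and -1.31 from their means, and Hsp90b1 by -0.49.

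Dnajb9 and Herpud1 had r = 0.91 with each other over the 6 livers, 0.78 without Zpbp2 KO replicate 2 and 0.54 over 4 livers without that library and WT replicate 1. With the 7 genes their r was -0.37 to -0.02 over 14 pairs. Xbp1 lay between, with r of 0.53 to 0.69 with the 7 genes. These correlations share 6 libraries and their depth, and are descriptions with no test.

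**Figure D3:**
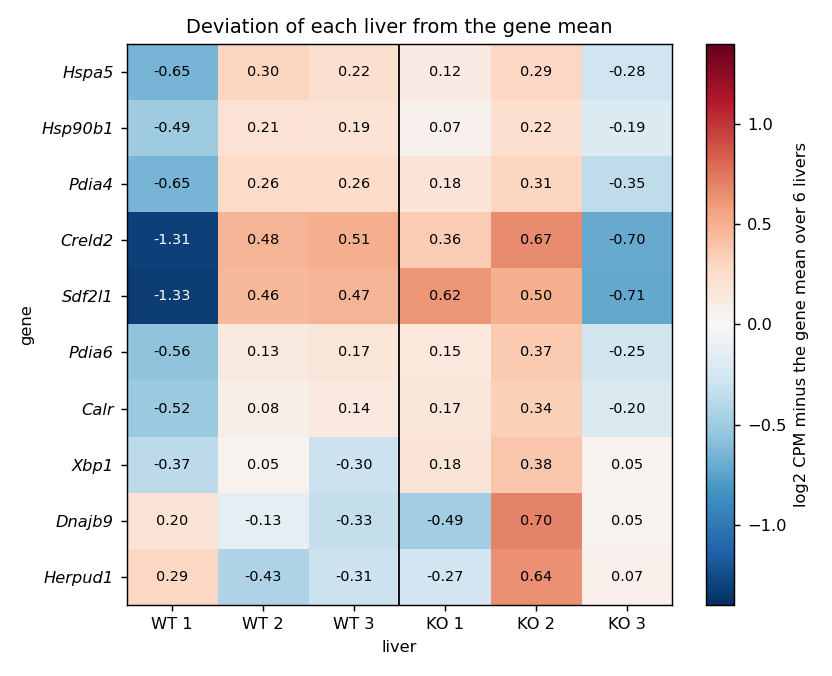
Log2 CPM of each gene (rows) in each liver (columns, WT left of the line, Zpbp2 KO right) minus the mean of that gene over 6 livers, with the value written in each cell. The upper 7 rows are low in WT replicate 1 and Zpbp2 KO replicate 3, with -1.33 for Sdf2l1 as the lowest cell, while Dnajb9 and Herpud1 are high in WT replicate 1 and highest in Zpbp2 KO replicate 2.

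Levels were also divided by exon length, with the exons of all annotated transcripts of a gene merged. The order that follows depends on these lengths, such as 2880 bases for Calr and 4229 for Hspa5. They are not the lengths of the mRNA forms present, and the annotation behind the counts is not given. By this measure Calr was the most abundant of the 10, at a mean level of 322 CPM per kilobase over 6 livers. Hsp90b1 followed at 222 and Hspa5 at 217. Hsp90b1 lay above Hspa5 in 3 of 6 livers, so that pair was not ordered. Herpud1 came next at 128, then Pdia4 at 97.2, Pdia6 at 78.5 and Xbp1 at 77.7 CPM per kilobase, where Herpud1 exceeded Pdia4 in 3 livers and Pdia6 exceeded Xbp1 in 2. The lower levels were those of Sdf2l1 (39.5), Creld2 (34.8) and Dnajb9 (23.5). Xbp1 and Sdf2l1 were the single pair of neighbours in this order whose ranges over the 6 livers did not overlap. Calr was above Hsp90b1, Pdia4 above Pdia6 and Sdf2l1 above Creld2 in each of the 6 livers although their ranges overlapped. Summed without length correction, the 10 transcripts took 2812, 4302 and 4241 CPM in the WT livers and 4167, 4911 and 3393 CPM in the Zpbp2 KO livers.

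The sensors and transducers of the UPR (18 genes, all tested) had 0 called in either direction, a median log2 fold change of -0.03 and 8 genes above 0. Ern1, the gene for IRE1, stood at 90.9, 138 and 87.4 CPM in the WT livers and 91.8, 141 and 117 CPM in the Zpbp2 KO livers (0.15 ± 0.21). Eif2ak3, the gene for PERK, stood at 16.5 ± 1.26 and 18.9 ± 5.46 CPM (SD, n = 3), and Atf6 at 87.3 ± 7.02 and 81.6 ± 17.0 CPM. Atf4, the factor downstream of PERK, was at 105 ± 6.88 and 101 ± 8.34 CPM, and Creb3l3, an ER-bound factor of hepatocytes, at 325 ± 23.6 and 301 ± 18.5 CPM. Ddit3, the stress factor CHOP, stood at 4.995, 3.70 and 4.61 CPM in the WT livers and 4.20, 8.07 and 5.35 CPM in the Zpbp2 KO livers. It was highest in Zpbp2 KO replicate 2 as Herpud1 was, with r = 0.92 to Herpud1 over the 6 livers. That r was not recomputed without Zpbp2 KO replicate 2. The smallest p-values of this list were those of Ppp1r15a, the phosphatase subunit GADD34 that ends the PERK signal (15.1 ± 2.36 and 11.9 ± 0.504 CPM, -0.35 ± 0.14), and Bhlha15, a factor of secretory cells (0.333 ± 0.176 and 0.800 ± 0.566 CPM, 1.25 ± 0.58). For both, edgeR gave an adjusted p of 0.798. No overlap was seen with Zpbp2 KO lower in 2 of the 18 genes, Ppp1r15a and Mbtps1, against 6.01% of all tested genes. With Zpbp2 KO higher it was seen in 0, against 5.56%.

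The other ER chaperones and folding enzymes (41 genes, all tested) also had 0 called, a median of 0.08 and 26 above 0. Fkbp11, a prolyl isomerase of secretory cells, had the smallest p among them (0.0120 unadjusted, 0.739 adjusted, by edgeR's quasi-likelihood test). It stood at 11.2, 12.4 and 13.3 CPM in the WT livers and 15.3, 19.9 and 15.6 CPM in the Zpbp2 KO livers (0.46 ± 0.14), with no overlap. Cnpy2 followed at 61.1 ± 1.49 and 73.5 ± 9.54 CPM (0.27 ± 0.11), also with no overlap. Hyou1, an Hsp110-type partner of BiP, shared the pattern of Hspa5 with r = 0.997 over 6 livers, at 141, 347 and 321 CPM in the WT livers and 286, 327 and 209 CPM in the Zpbp2 KO livers.

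Genes of ER-associated degradation (27 tested, 0 called) had a median of 0.01 with 14 above 0. Their smallest p-values were those of Rnf139, a membrane ubiquitin ligase (42.6 ± 1.90 and 37.0 ± 1.25 CPM, -0.20 ± 0.09), and Derl2, a channel protein of the retrotranslocation complex (123 ± 5.25 and 144 ± 15.9 CPM, 0.23 ± 0.11). Genes of ER translocation and N-glycosylation (29 tested, 0 called) had a median of 0.14 with 26 above 0, against 7764 of 14686 over all tested genes. They were led by the translocon subunits Sec61b (50.1 ± 5.87 and 67.6 ± 13.4 CPM, 0.43 ± 0.16) and Sec61g (31.4 ± 3.86 and 41.2 ± 9.59 CPM, 0.39 ± 0.18). As for the 10 genes, the mean of this list was low in WT replicate 1 (-0.22) and high in Zpbp2 KO replicate 2 (0.21), relative to the gene means in log2 CPM. Its direction was not recomputed with livers left out. ER to Golgi transport genes and KDEL receptors (27 tested, 0 called) had a median of 0.06 with 18 above 0. Among them Sec23a, a coat protein of transport vesicles, stood at 92.3 ± 3.05 and 77.3 ± 9.53 CPM (-0.26 ± 0.11), and Cope, a coatomer subunit, at 86.6 ± 5.50 and 106 ± 17.9 CPM (0.30 ± 0.13). The edgeR adjusted p was 0.798 for each of these 6 genes. Of them, Rnf139 and Sec23a were lower and Derl2 higher in the Zpbp2 KO livers without overlap, and the groups overlapped for the others. Over the 5 lists together, an unadjusted p below 0.05 was reached by 3 of 142 genes with Zpbp2 KO higher and 2 with it lower, or 3.52%, against 5.79% of all tested genes. In 7 genes Zpbp2 KO was higher and in 7 lower without overlap, 4.93% each, against 5.56% and 6.01% of all tested genes. DESeq2 called 0 genes on each of these lists.

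**Figure D4:**
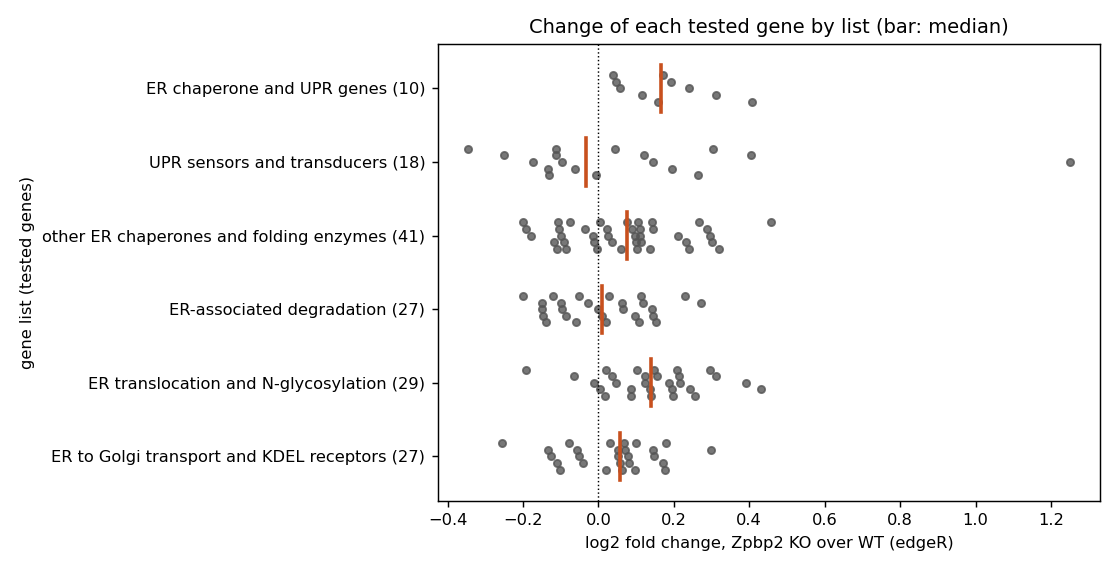
Log2 fold change of each tested gene (points), Zpbp2 KO over WT, by list with the number of tested genes, and the median of each list (orange bar). Medians lie between -0.03 and 0.17, and Bhlha15, at 1.25, is the point farthest from 0. Its levels were low, at 0.153 to 1.45 CPM, with the highest in Zpbp2 KO replicate 2 and overlap between the groups.

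The livers that were low for the chaperones were low for most of these lists too, by less. In WT replicate 1 the mean deviation from the gene means, on the log2 CPM scale, was -0.54 for the 10 genes, -0.22 for translocation and N-glycosylation, -0.16 for the other chaperones and -0.11 for each of the other 3 lists. In Zpbp2 KO replicate 2 it was 0.44 for the 10 genes, 0.21 for translocation and N-glycosylation and 0.10 to 0.12 for the other lists. Zpbp2 KO replicate 3 gave -0.25 for the 10 genes and -0.11 to 0.08 for the other lists, the sensors being above 0 there. Over all tested genes the mean deviation was -0.01 to 0.02 in each library. Hepatocyte markers deviated by -0.01, -0.06 and -0.01 in WT replicates 1 to 3 and by 0.01, 0.10 and -0.04 in Zpbp2 KO replicates 1 to 3. Kupffer cell markers deviated by 0.24, 0.08 and -0.31 in WT and by 0.42, -1.12 and 0.69 in Zpbp2 KO replicates 1 to 3. They were highest in Zpbp2 KO replicate 3, where the 10 genes were low, and lowest in Zpbp2 KO replicate 2, where the 10 genes were highest. Their part in these shifts was not tested.

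**Figure D5:**
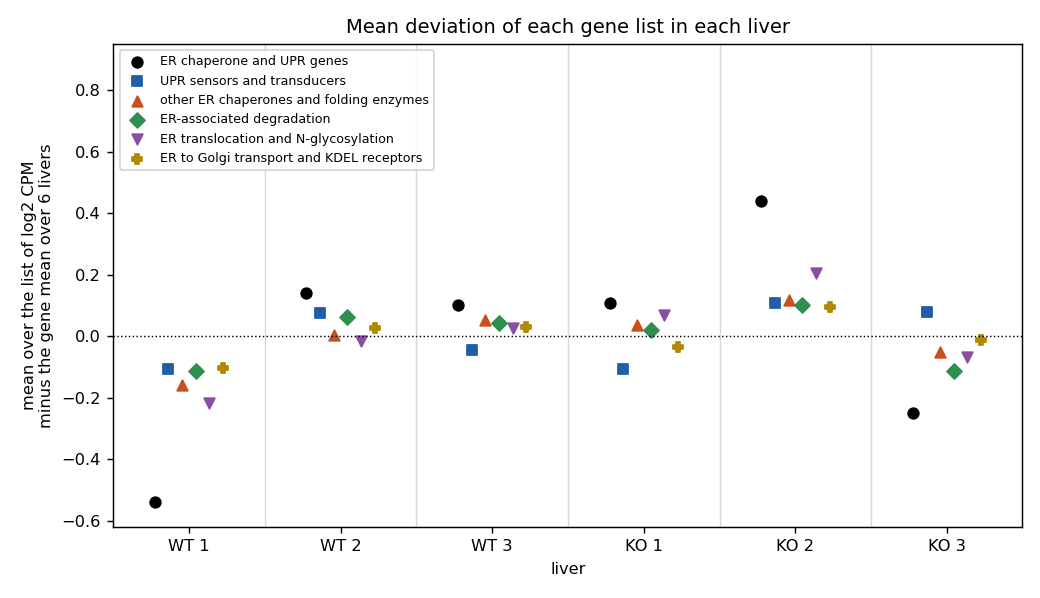
Mean deviation from the gene means over 6 livers (log2 CPM) for each list (symbols) in each liver, WT at left and Zpbp2 KO (KO) at right. The 10 genes range from -0.54 in WT replicate 1 to 0.44 in Zpbp2 KO replicate 2, the widest range of the 6 lists plotted.

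Likeness to the mean pattern of the 10 genes was measured by Pearson's r over the 6 livers. The 5 tested and named genes outside the list with the highest r were Cdc7 (0.998), Josd2 (0.996), Ube2u (0.992), Trim13 (0.991) and Htra4 (0.989). Over 6 livers such values are common, since 441 tested genes (3.00%) had r of at least 0.9. With Hspa5 alone as the reference, chosen after the values were seen, 2.06% of all tested genes reached r of 0.9, as did 5 of 41 other chaperones and folding enzymes (Hyou1, Dnajb11, Dnajc1, Pdia3 and Manf), 4 of 27 degradation genes (Syvn1, Edem1, Edem2 and Faf2), 5 of 29 translocation and N-glycosylation genes (Sec61a1, Ssr1, Ssr3, Rpn1 and Rpn2), 0 of 27 transport genes and 1 of 18 sensors and transducers (Atf6b). With Herpud1 as the reference, 0.633% of all tested genes reached 0.9, and of the 142 genes on the 5 lists 1 did, Ddit3. These shares were not recomputed without the low livers or without Zpbp2 KO replicate 2.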

How the data were processed

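RNA-seq libraries of 3 WT and 3 Zpbp2 KO livers were read as pairs of 100 cycles from 250 ng of RNA, per the labels. The deposited values are whole-number counts per gene, made by the authors, and are not normalized. The build mm9 and the tools STAR, Picard and HTSeq are listed, per the submitters' processing notes. The sources used here do not give versions, annotation or strand setting, so reads of overlapping genes on the 2 strands may have been mixed. Columns were matched to samples by title. Symbols came from GENCODE M21 and RefSeq tables, which named 32919 of 37991 IDs (86.6%). Exon lengths came from GENCODE M21, with the exons of all transcripts of a gene merged. RefSeq promoter windows are on GRCm38.p6, not on the build of the counts.

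Genes were filtered with filterByExpr (minimum count 10), scaled by TMM and tested with edgeR 4.0.16 in R 4.3.3 by the quasi-likelihood test, two-sided, with no covariate. A gene was called where its p, adjusted by Benjamini-Hochberg across the whole table of tested genes, was below 0.05. Intervals (95%) and SEs are those of this test. CPM use TMM-scaled library sizes, and log2 CPM a prior count of 2. Total counts were 37904891 to 52955687. For the 10 genes, with at least 814 counts in each library, counting error was small beside the spread between livers. For genes of low level, such as Zfp57 at 0.575 to 0.877 CPM, it was not small. PCR copies were not told apart. DESeq2 1.42.0, limma-voom (limma 3.58.1), other scalings and filters, a robust fit, a replicate block and fits leaving out 1 library at a time were alternatives.

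The members and lists were chosen with earlier results of these data known. Named were the 10 genes, Zpbp2, 6 set transducers, the 2 genes of smallest p on each list with none called, and the 5 genes most like the mean pattern. Any other gene was named after its values were seen. On counts simulated for this comparison over 14686 genes, edgeR found 11.0% of true 1.5-fold changes, 55.2% of 2-fold and 89.8% of 4-fold ones, and made 6 false calls. Such rates are for genes of every spread. Most of the 10 genes spread more within groups than the median gene, and no rates were taken for genes like them. Pairs of libraries within a group differed by a chi-square of 19.9 to 102 per gene over the 6 pairs, far above sampling noise, so none was counted as a copy. The labels name 3 livers per group as separate samples. The p-values therefore set the difference between groups against the spread between livers, which edgeR moderates for each gene by that of all tested genes. The table of protein sequences was not used here.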

Additional observations from a re-analysis of the deposited data

How the results depend on the processing

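For the 10 genes, 0 were called by edgeR, DESeq2 and limma-voom, under each other scaling, filter, block and robust fit, and with each library left out. The same held for the pathway lists. The number of all genes called was 2, and moved to 76 with DESeq2, to 12 with no filter and to a range of 2 to 4 with each library left out. The median log2 fold change of the 10 genes (0.17) ran from 0.13 to 0.19 under the 8 other fits and from -0.10 to 0.32 with each library left out. Of 140 log2 fold changes of single genes under the alternatives, 13 changed sign, all of them with 1 library left out and none past the threshold. The ranges with each library left out were -0.20 to 0.21 for Hspa5, -0.16 to 0.15 for Hsp90b1, -0.19 to 0.23 for Pdia4, -0.043 to 0.31 for Pdia6, -0.12 to 0.48 for Dnajb9, -0.22 to 0.49 for Sdf2l1 and -0.28 to 0.42 for Creld2. Of the 13, 6 came from leaving out WT replicate 1, 5 from Zpbp2 KO replicate 2 and 2 from Zpbp2 KO replicate 1. Promoters with either element numbered 6 of 10, and 7 of 10 with 1 mismatch allowed in CCACG, which 0.998% and 0.776% of all windows then held for the 2 elements. With the replicate block the median of the 10 genes was 0.19 and 0 of them were called. Same-numbered livers of the genotypes correlated at -0.24 to 0.20 in their deviations, and livers with unlike numbers at -0.32 to 0.23. These few values gave no sign that the numbers pair the samples, and cannot exclude it. The leave-one-liver-out correlations were chosen after seeing the data.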

Other observations

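Genes with an exact ER stress element in their promoter window, outside the 10, were read from the same fit. This set was chosen after the matches of the 10 genes were seen. The element was found for 37 gene symbols in all, of which 19 were tested, 14 of them outside the 10. Of these 14, 0 were called, 0 were at an unadjusted p below 0.05 by edgeR's quasi-likelihood test, and 7 were above 0, with a median log2 fold change of 0.02. Syvn1, the ubiquitin ligase HRD1 of ER-associated degradation, had the highest r with Hspa5 (0.93 over 6 livers), at 75.1, 151 and 144 CPM in the WT livers and 114, 193 and 94.5 CPM in the Zpbp2 KO livers. Derl3, a degradation channel protein, stood at 0.763, 2.82 and 2.83 CPM in the WT livers and 2.95, 2.76 and 0.575 CPM in the Zpbp2 KO livers, low in WT replicate 1 and Zpbp2 KO replicate 3 (r = 0.89). Zfp57, a zinc finger protein of imprinted loci, had r = 0.81. It stood at 0.575 to 0.877 CPM, a level at which counting error was not small beside the spread between livers. Dnajc3, the inhibitor of PERK known as p58IPK, had r = 0.79, and Alg12, a mannosyltransferase of N-glycan assembly, r = 0.75. Canx, the membrane lectin chaperone calnexin, moved less, at 387, 436 and 431 CPM in the WT livers and 398, 371 and 396 CPM in the Zpbp2 KO livers (r = 0.37). Values below 0 were those of Spats2l (-0.64), Xlr3b (-0.11) and Adcy3 (-0.09), and the other 5 genes, among them Hnrnpa3 (0.71) and Acacb (0.32), had r of 0.25 to 0.71. The median r with Hspa5 of the 14 genes was 0.53, against 0.04 over all tested genes, and 1 of the 14 reached 0.9. Among the pathway lists the median was 0.73 for translocation and N-glycosylation and 0.46 for the other chaperones. Degradation genes had 0.44, transport genes 0.43 and sensors and transducers -0.01. Some of the 14, such as Syvn1, Dnajc3 and Canx, are on those lists too. These medians were not recomputed without the low livers.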
